A study of Homo sapiens and Homo sapiens
Mus musculus and Mus musculus with 9 samples.

Results

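The 10 genes described here belong to the SOX family, the transcription factors that carry a DNA-binding HMG box related to that of SRY: SOX2, SOX4, SOX5, SOX6, SOX8, SOX9, SOX11, SOX12, SOX13 and SOX18. They are 10 of the 41713 genes in the deposited table and 10 of its 19 numbered SOX genes. The members were found by gene symbol, and the set was selected on the deposited fold change of SOX9, because SOX9 was lower in the co-culture in that contrast. The contrast chose the set, so it is neither printed nor tested here. The values given are the level of each gene in 3 ways of separating human from mouse reads, the whole reads behind those levels, and the sequence the genes share with mouse transcripts. The contrast was made from the reads of these same libraries, so the spread of SOX9 over libraries is not independent of the choice and is given as a description.

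The study grew C4-2B, an established human prostate cancer cell line that metastasizes to bone, alone or mixed with MC3T3-E1, a mouse preosteoblast line, at 1 C4-2B cell to 30 MC3T3-E1 cells. Each condition had 3 mRNA libraries, and the labels give both lines as wild type and maintained in serum-containing alpha-MEM. The study's methods name RPMI as the usual medium of C4-2B and use a GFP-expressing C4-2B line in co-cultures; which line gave these libraries is not stated in the labels. A further 3 libraries of MC3T3-E1 cultured alone were not analysed here. Each line is a single cell line, so the libraries do not sample patients or animals, and nothing in the labels says that replicates came from separate cultures.

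SOX proteins bind the minor groove of DNA through the HMG box and bend it, and they act with partner factors. The family is divided into groups by sequence. Group B1 (SOX2) holds progenitor factors, group C (SOX4, SOX11, SOX12) activators of embryonic progenitors, group D (SOX5, SOX6, SOX13) proteins that lack a transactivation domain of their own, group E (SOX8, SOX9) factors of cartilage, testis and neural crest, and group F (SOX18) factors of endothelium. SOX9 drives the cartilage programme together with SOX5 and SOX6, and it is required for prostate bud outgrowth.

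The HMG box and its flanks are conserved between human and mouse, so a human read from a SOX gene can match the mouse transcript equally well. Each coding stretch below is the longest that the named human SOX gene shares base for base with its own mouse counterpart. They are shown because a single read that lies wholly inside such a stretch does not tell the 2 species apart. Human bases are from GENCODE release 44 on GRCh38. Capitals mark the bases identical to the mouse transcript, and lower case marks up to 10 human coding bases on each side.
SOX9, 74 identical bases, exon 3, chr17:72124015-72124108, plus strand: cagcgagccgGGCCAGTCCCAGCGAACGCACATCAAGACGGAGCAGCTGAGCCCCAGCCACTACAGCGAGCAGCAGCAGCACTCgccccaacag
SOX8, 35 identical bases, exon 3, chr16:984789-984843, plus strand: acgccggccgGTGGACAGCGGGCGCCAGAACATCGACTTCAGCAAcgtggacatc
SOX11, 95 identical bases, exon 1, chr2:5693936-5694047, plus strand: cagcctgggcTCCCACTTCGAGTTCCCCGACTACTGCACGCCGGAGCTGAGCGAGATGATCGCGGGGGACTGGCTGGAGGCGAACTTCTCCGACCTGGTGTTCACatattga
SOX4, 80 identical bases, exon 1, chr6:21594723-21594822, plus strand: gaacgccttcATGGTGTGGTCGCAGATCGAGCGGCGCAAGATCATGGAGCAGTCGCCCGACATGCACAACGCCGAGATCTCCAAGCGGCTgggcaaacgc
SOX2, 92 identical bases, exon 1, chr3:181712957-181713068, plus strand: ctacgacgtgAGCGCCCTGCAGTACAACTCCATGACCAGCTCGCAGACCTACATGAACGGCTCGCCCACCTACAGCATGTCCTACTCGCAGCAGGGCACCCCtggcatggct
SOX5, 74 identical bases, across an exon junction, chr12:23895979-23949601, minus strand: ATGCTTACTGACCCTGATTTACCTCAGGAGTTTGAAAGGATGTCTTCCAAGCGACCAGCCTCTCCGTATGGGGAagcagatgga
SOX6, 88 identical bases, across an exon junction, chr11:16055814-16096015, minus strand: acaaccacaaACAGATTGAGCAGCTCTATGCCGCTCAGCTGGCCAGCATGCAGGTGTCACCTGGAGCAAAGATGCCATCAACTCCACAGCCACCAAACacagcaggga

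The longest runs of SOX12 (86 bases), SOX18 (45) and SOX13 (32) are not shown. The SOX4 run lay wholly inside the HMG box, which was taken as 237 bases from 2 codons before the conserved core. The SOX9 and SOX11 runs lay towards the 3′ end of the coding sequence, and the SOX5 run began at the start codon. The reads were paired and 50 bases long, so in every gene shown except SOX8 the run was longer than 1 read. The other read of a pair could still lie outside the run.

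Over all of its transcripts, SOX9 shared 5.02% of its distinct 31-base stretches with mouse transcripts, which put it at the 94.3rd percentile of protein-coding genes. The median protein-coding gene shared 0.502%. SOX2 (15.0%), SOX4 (13.6%) and SOX12 (7.06%) shared more than SOX9. SOX11 (4.34%), SOX6 (3.60%), SOX18 (2.35%) and SOX5 (1.89%) shared less than SOX9 but more than the median gene. SOX13 (0.294%) and SOX8 (0.112%) lay below it. The 2 group E genes therefore stood far apart, although SOX8 and SOX9 are close relatives: SOX8 had 5 shared stretches and SOX9 had 196. Nearly all of these stretches were held by the gene's own mouse counterpart, from 81.8% in SOX13 to 100.0% in SOX6, SOX8 and SOX18. This order of the genes is for 31 bases and changed in part at 50 bases, the read length. SOX11 (1.47%) and SOX6 (1.09%) then shared more than SOX9 (1.03%), and SOX4 (6.68%) shared more than SOX2 (5.08%).

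The shared bases were not confined to the HMG box. In the canonical SOX9 transcript, 13.1% of the shared bases lay in the HMG box, 42.7% in the rest of the coding sequence, 38.4% in the 3′ UTR and 5.84% in the 5′ UTR. Within the box itself, 35.9% of the SOX9 bases were inside a shared stretch, beside 66.2% in SOX2, 60.8% in SOX4, 56.5% in SOX12 and 0% in SOX8. In SOX4 and SOX11 the 3′ UTR held most of the shared bases, 75.2% and 71.7%.

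**Figure D1:**
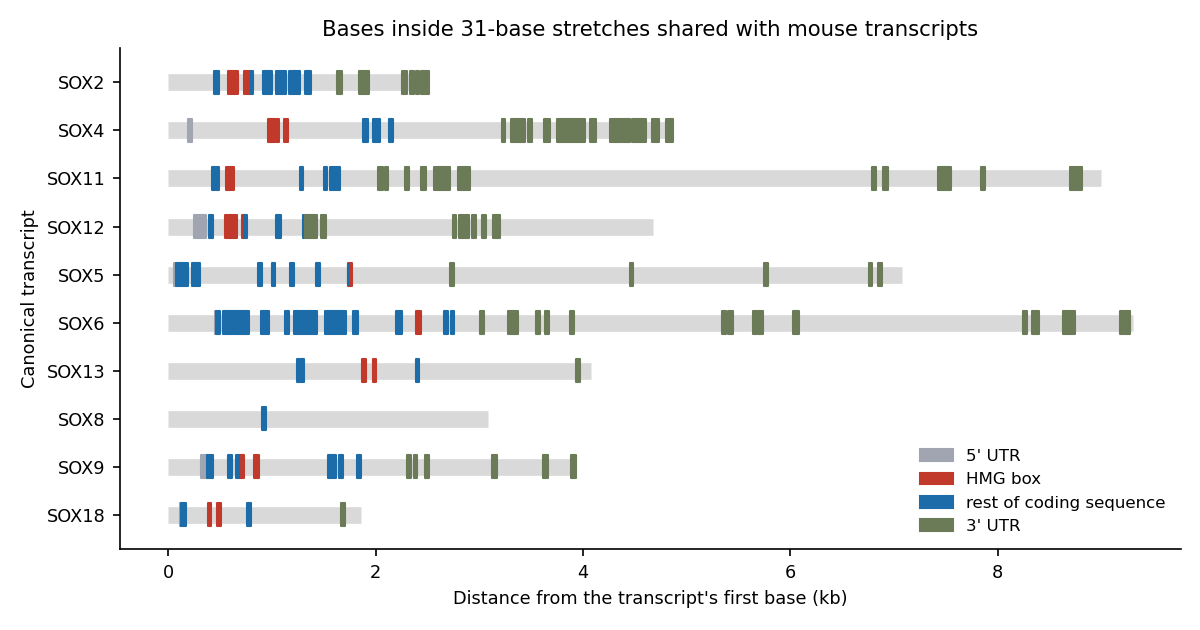
Position of the bases that lie inside a 31-base stretch shared with mouse transcripts, along the canonical transcript of each SOX gene (x axis, kb from the first base; grey bars, the whole transcript). Colours give the region; SOX8 has a single shared place of 35 bases, while SOX9 has 651 shared bases in the coding sequence and both UTRs.

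The levels below are the authors' mean over all 6 libraries of the count divided by a size factor, called the mean count here; each mean pools C4-2B alone with the co-culture and has no error of its own. A level per kb divides it by the length of the gene's merged exons. The 2 group C genes SOX4 and SOX12 were the highest of the set. SOX4, which is often raised in prostate tumours, had a mean count of 8034 in the Xenome pipeline, 7911 in XenofilteR and 8244 in Kallisto. Its level of 1650 per kb was at the 94.4th percentile of the protein-coding genes above 0 in Xenome. SOX12 had mean counts of 5647, 5605 and 5718 in the same order of pipelines, and 1208 per kb in Xenome. The level of SOX4 per kb was 1.37 times that of SOX12 in Xenome and 1.38 times in Kallisto.

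SOX13, the group D gene first known as an autoantigen, came next, with mean counts of 795, 797 and 802 and a level of 107 per kb in Xenome. SOX9 followed per kb in each pipeline, with mean counts of 246 in Xenome, 246 in XenofilteR and 245 in Kallisto. Its level of 62.6 per kb was at the 45.8th percentile of the protein-coding genes above 0 in Xenome, so SOX9 was a gene of middle level in these libraries. Per kb, SOX4 was 26.4 times, SOX12 19.3 times and SOX13 1.71 times as high as SOX9 in Xenome. SOX8, the other group E gene, had mean counts of 96.8, 96.5 and 96.6. Per kb SOX9 was 2.89 times as high as SOX8 in Xenome and 2.88 times in Kallisto. These ratios are of pooled means and did not hold in each library: in the shallowest, SOX9 and SOX8 each had 11 Xenome reads.

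At the low end, SOX18, a factor of vascular and lymphatic endothelium, had mean counts of 0.729, 0.722 and 0.734. SOX2 had 0.0686 in Xenome, 0.0684 in XenofilteR and 1.32 in Kallisto. A single read is worth between 0.0281 of a mean count in the deepest library and 1.53 in the shallowest, so these means stand for few reads, 24 for SOX18 and 2 for SOX2 in Xenome. By the counting interval that 6 libraries of this depth allow (95%, counting error only), a mean of 0.729 could lie between 0.0439 and 3.28. The orders of SOX18, SOX2 and, in Xenome, SOX5 were within that error.

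**Figure D2:**
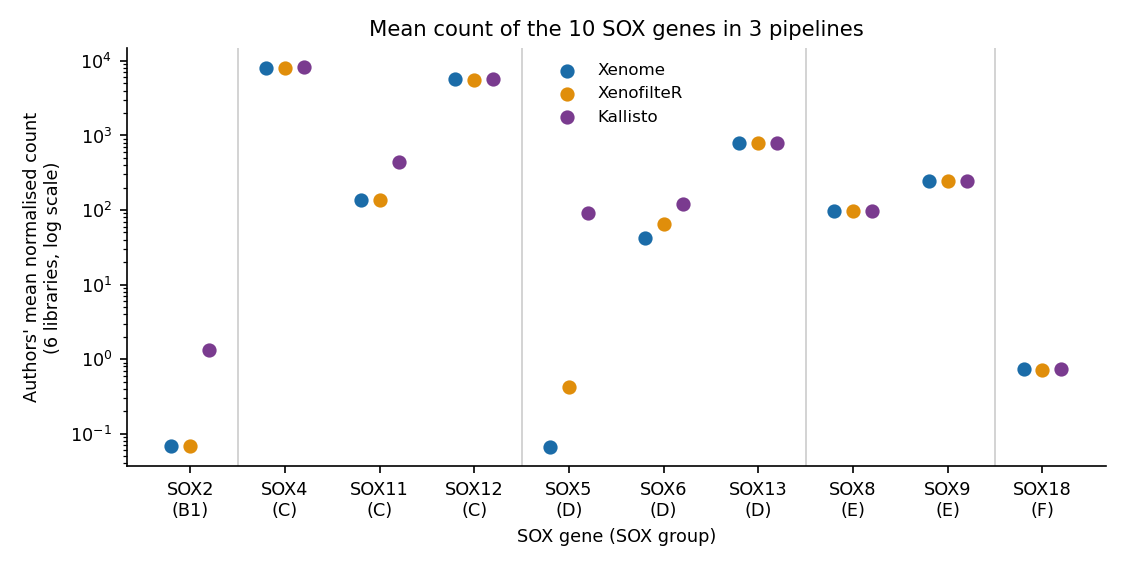
Authors' mean normalised count (y axis, log scale) of each SOX gene, arranged by SOX group (x axis), in the Xenome, XenofilteR and Kallisto pipelines (1 point each, pooled over 6 libraries, no error available). The 3 points coincide for SOX4, SOX12, SOX13, SOX8, SOX9 and SOX18, and the Kallisto point lies above the Xenome point for SOX2, SOX11, SOX5 and SOX6.

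The 3 pipelines separate the species in different ways. Xenome sorts reads by short words before alignment, and only human reads were kept. XenofilteR compares the alignments to both genomes and removes reads that fit mouse better. Kallisto spreads reads over the joined human and mouse transcripts. For 6 of the 10 genes the choice made little difference to the mean. The ratio of the Kallisto to the Xenome mean was 0.996 for SOX9 and 0.998 for SOX8. It was 1.01 for SOX12, SOX13 and SOX18, and 1.03 for SOX4, beside a median of 1.02 over the 13262 genes at a mean count of 10 or more in both pipelines.

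In SOX2, SOX5, SOX6 and SOX11 the Kallisto mean was at least 2 times the Xenome mean, a threshold chosen after the values were seen. These are 4 of 10 members, beside 18.1% of all 17858 genes above 0 in both pipelines. Among the 7 members at a mean count of 10 or more in both, only SOX6 and SOX11 passed, beside 8.83% of the 13262 genes at that level. Of the 9 other SOX genes, SOX7 alone among the 6 with a ratio passed it, with mean counts of 19.1 in Xenome and 49.8 in Kallisto.

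SOX11, a group C factor of the developing nervous system, had mean counts of 138 in Xenome, 136 in XenofilteR and 441 in Kallisto. Its ratio of 3.20 was at the 95.0th percentile of the genes at 10 or more, and its counting interval was 2.83 to 3.62. SOX11 therefore stood above SOX9 by pooled mean count in Kallisto and below it in the other pipelines, although in the 2 shallowest libraries SOX11 had more Xenome reads than SOX9 (33 against 26, and 14 against 11). Per kb it was below SOX9 in each pipeline, since its transcript is 9.00 kb long and that of SOX9 3.93 kb; SOX9 was 4.09 times as high per kb in Xenome and 1.27 times in Kallisto.

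SOX6 and SOX5, the group D partners of SOX9 in cartilage, both had their highest mean in Kallisto. SOX6 had mean counts of 42.4 in Xenome, 64.1 in XenofilteR and 120.3 in Kallisto. Its ratio of Kallisto to Xenome was 2.84, with a counting interval of 2.28 to 3.58, at the 94.3rd percentile. With XenofilteR in the denominator the SOX6 ratio was 1.88, under the threshold of 2. SOX5 had mean counts of 0.0656, 0.422 and 90.5. The ratio for SOX5 was 1378, at the 99.7th percentile of the genes above 0 in both, but it rests on 2 Xenome reads and its interval reaches down to 43.5. With XenofilteR in the denominator the ratio for SOX5 was 214, also on 2 reads. For SOX2, the stem cell factor, the ratio of 19.3 also rests on 2 Xenome reads. Its interval begins at 0.633. The difference of 1.25 between the SOX2 means is less than the worth of 1 read in the shallowest library (1.53) but many reads in the deepest (0.0281 each). The Kallisto mean was not solved into reads, so whether the pipelines differ for SOX2 could not be decided.

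The share of sequence common to both species did not place the genes in the order of these ratios. SOX4 shared 13.6% of its 31-base stretches and had a ratio of 1.03, and SOX12 shared 7.06% with a ratio of 1.01. SOX9 shared 5.02% with a ratio of 0.996. SOX2 shared the most of the set at 31 bases, 15.0%, and had a ratio of 19.3 on 2 Xenome reads, second to that of SOX5. At 50 bases SOX4 shared the most, 6.68%, beside 5.08% in SOX2. SOX5 shared only 1.89% and had the highest ratio of the set. Among protein-coding genes at a mean count of 10 or more in both pipelines, the ratio was 2 or more in 10.6% of the 2575 genes that shared under 0.1%, 9.27% of those from 0.1% to 1%, 6.78% from 1% to 3%, 7.73% from 3% to 10% and 9.95% of the 211 genes at 10% or more. The median ratio over the same bins was 1.01, 1.02, 1.02, 1.03 and 1.07.

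**Figure D3:**
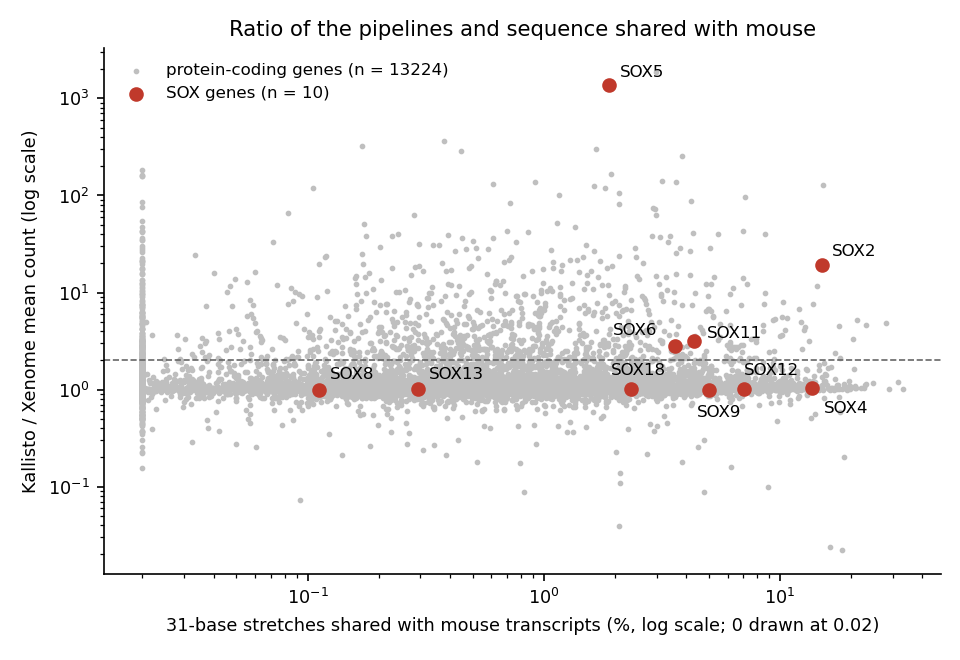
Ratio of the Kallisto to the Xenome mean count (y axis, log scale) against the percent of distinct 31-base stretches shared with mouse transcripts (x axis, log scale) for 13224 protein-coding genes (grey) and the 10 SOX genes (red). The dashed line marks a ratio of 2; SOX4, with 13.6% shared, lies at 1.03, and SOX5, with 1.89% shared, at 1378.

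SOX5 and SOX11 differed from the other members in 1 further way. Both hold stretches made of 31-base words that occur in many mouse genes other than their own counterpart. A 34-base stretch in a 638-base SOX5 transcript consisted mostly of TG and GT steps (87.9% of its successive 2-base steps) and contained 31-base words found in 85 other mouse genes. A 38-base stretch of the canonical SOX5 transcript rich in CA and AC contained 31-base words found in 74 others. The words of a 35-base A and T stretch of SOX11 were found in 207 others. All lay outside the coding sequence. No such stretch was found in the other 8 members, SOX2 and SOX6 included, and the part of these stretches in the Kallisto means was not tested.

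Whole reads per library could be recovered for 7 of the 10 genes. In the Xenome and XenofilteR pipelines a mean is a sum of whole reads, each worth a fixed step in its library, and the steps were found from the lowest means of the table. The 6 libraries differed widely in depth: their size factors in Xenome were 5.926, 5.314, 4.862, 0.4266, 0.1448 and 0.1089, which corresponds to about 251 M assigned reads in the deepest and 4.61 M in the shallowest if each had the average makeup. Libraries are numbered from 1, the deepest, to 6. The table attaches no label to them, and groups were not inferred from values, so the libraries were not placed in the co-culture or in C4-2B alone and enter no comparison between groups.

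SOX9 had 2022, 1711, 1758, 73, 26 and 11 reads in libraries 1 to 6 in Xenome. Divided by the size factors these are normalised counts of 341, 322, 362, 171, 179.6 and 101. In XenofilteR the SOX9 reads were 2021, 1702, 1759, 74, 26 and 11. The lowest library was 3.58 times below the highest in Xenome, and the shallowest library rests on 11 reads. The SOX9 mean alone allowed 423 sets of whole reads in Xenome and 407 in XenofilteR; the pair given is the one in which the pipelines differ least, and the next best pair differed 7.7 times as much by the same score.

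SOX8 had normalised counts of 92.5, 96.0, 75.7, 84.4, 131 and 101 in libraries 1 to 6 in Xenome, from 548, 510, 368, 36, 19 and 11 reads. The highest SOX8 library was 1.73 times the lowest. SOX11 had normalised counts of 101, 128, 124, 117, 228 and 129, from 601, 681, 601, 50, 33 and 14 reads. Library 5 was its highest and the others lay between 101 and 129. In XenofilteR the SOX11 reads were 598, 684, 609, 47, 32 and 14, so the Kallisto mean of 441 was above the value of every library in either of these pipelines.

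**Figure D4:**
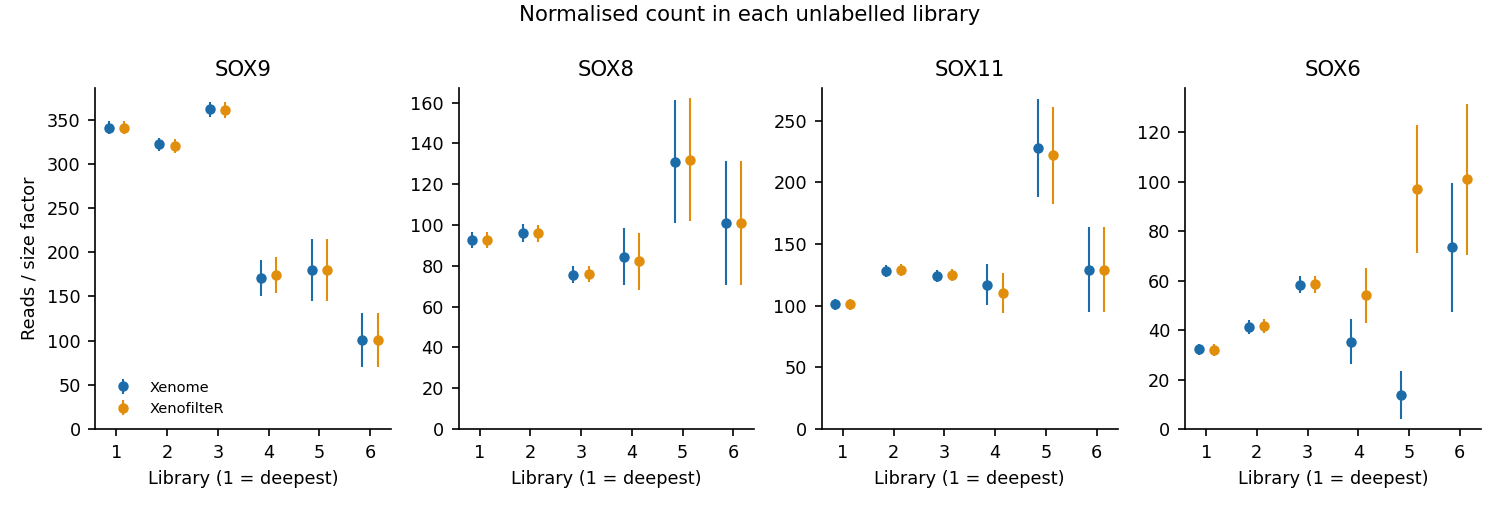
Normalised count (reads divided by the size factor, y axis from 0) of SOX9, SOX8, SOX11 and SOX6 in the 6 unlabelled libraries (x axis, 1 is the deepest), in Xenome and XenofilteR; bars are the square root of the reads on the same scale, counting error only. In Xenome, SOX9 lies between 322 and 362 in libraries 1 to 3 and between 101 and 179.6 in libraries 4 to 6, and SOX6 differs between the pipelines in libraries 4 to 6.

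The step from Xenome to XenofilteR added SOX6 reads almost wholly in the shallow libraries. SOX6 had 191, 220, 284, 15, 2 and 8 reads in libraries 1 to 6 in Xenome and 190, 222, 285, 23, 14 and 11 in XenofilteR. Libraries 1 to 3 together held 695 and 697 reads, and libraries 4 to 6 held 25 and 48. The normalised count of library 5 went from 13.8 to 96.9. Over the same libraries COL1A2, a collagen gene of osteoblasts, had 1, 0, 0, 12, 19 and 12 reads in Xenome, and its mean went from 45.0 to 264 in XenofilteR; the part of mouse reads in the SOX6 values was not tested.

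The remaining solved genes were at the limit of detection. SOX2 had 2 reads in all, both in library 3, in Xenome and in XenofilteR. SOX5 had 1 read each in libraries 2 and 3 in Xenome, and 1 read each in libraries 2 and 4 in XenofilteR. SOX18 had 10, 11 and 3 reads in libraries 1 to 3 in Xenome and 12, 9 and 3 in XenofilteR, with none in libraries 4 to 6. A count of 0 there allows up to 3 reads, which is a normalised count of 7.03 in library 4 and 27.6 in library 6, so an absence was not detectable at this depth. SOX13 could not be resolved into reads, since 189439 sets fit its Xenome mean. For SOX4 and SOX12, whose means were far higher, no solution was attempted.

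The cells were checked against marker lists. Of the prostate markers, KLK3, the gene of prostate-specific antigen, had a mean count of 51038 in Xenome, HOXB13 10532 and TMPRSS2 4603. The ratio of the Kallisto to the Xenome mean was 0.880 for KLK3, 0.998 for HOXB13 and 0.994 for TMPRSS2. Over the 8 prostate markers with a ratio the median was 0.996, and the highest were KRT18 (1.28) and KRT8 (1.18). Of the 9 osteoblast markers, 4 were at a mean count of 10 or more in each pipeline, and their summed mean count was 3924 in Xenome, 5380 in XenofilteR and 3229 in Kallisto. COL1A1 made up most of this sum, with 3384 in Xenome, while ALPL (0.103) and SP7 (0.984), which define the lineage, were near 0. RUNX2, the master regulator of osteoblasts, was at 411 in Xenome and 385 in Kallisto, and SPARC at 72.0 and 142. All these counts are of reads assigned to human, and MC3T3-E1 is a mouse line. The osteoblast marker values are therefore no measure of the number of osteoblasts or of their RNA. The part of mouse reads in them was not tested.

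The cartilage matrix genes known as targets of SOX9 were split. Of 11 genes, 10 were listed in Xenome and 5 were at a mean count of 10 or more: COL9A3 (443), COL9A2 (123), COL11A2 (43.3), MATN1 (20.8) and MATN3 (11.7). COL2A1, the fibrillar collagen of cartilage, was at 3.95 and ACAN, its main proteoglycan, at 1.75. In this list 5 of the 10 genes with a ratio had a Kallisto mean at least 2 times the Xenome mean, beside 18.1% of all genes above 0 in both pipelines, and the median ratio was 1.75, beside 1.03. Of these 5, only MATN1 was at a mean count of 10 or more in Xenome, and COL2A1, COL9A1, COL11A1 and ACAN were below it. COL11A1 alone of the 5 had a higher mean in XenofilteR (32.9) than in Kallisto (2.05), beside 0.575 in Xenome. Among all genes at 10 or more in both pipelines, 8.83% had a ratio of 2 or more. ACAN was at 20.8 and MATN1 at 82.1 in Kallisto, whereas COL9A2 was at 121.

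Of the 9 other SOX genes, SOX15 was the highest, with mean counts of 89.2, 89.2 and 72.2, and SOX7 followed. SOX10, the group E factor of neural crest, was at 1.72 in Xenome. SOX14, SOX21 and SOX30 were at 0.203 or less, and SOX1, SOX3 and SOX17 were listed at 0 in Kallisto and had no Xenome value. The SOX9 antisense transcript SOX9-AS1 had a mean count of 0.619 in Xenome and SOX2-OT, the long non-coding RNA that overlaps SOX2, 8.89. SOX2-OT was thus present where SOX2 itself had 2 reads in all. Whether the counting used strand, which matters for an antisense transcript such as SOX9-AS1, is not given in the sources used here.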

How the data were processed

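The authors separated species in 3 pipelines: Xenome sorting before HISAT2 alignment to GRCh38, XenofilteR filtering after alignment to GRCh38 and GRCm38 (featureCounts in both), and Kallisto on combined transcriptomes. The authors deposited, for each pipeline, the mean over 6 libraries of counts divided by DESeq2 size factors, beside 15 columns of their own comparison (log2 fold changes, standard errors, statistics and p-values), which were not used. The table had 41734 rows, and 21 repeats of a gene were dropped. All 10 members and the lists were chosen with earlier results of these data known, and all members are named. No test between groups was made, because each mean pools the groups; this differs from a design with counts per library.

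From the means, ratios of pipelines, percentiles and levels per kb of merged exon (GENCODE release 44) were computed with Python 3.11.15, numpy 2.4.6 and numba 0.67.0. Whole reads were solved as every set of 6 non-negative whole numbers whose weighted sum equals the mean within the rounding of its last printed digit, a tolerance that replaced 1e-06 relative after the data were seen. A solution was used if it was the only one, or if the closest pair of Xenome and XenofilteR solutions scored at least 3 times better than the next; the score is the largest difference over libraries of 2 times the square root of reads plus 1. The solver was tested on simulated data. A solution was found for all 3406 distinct Xenome means under 1.5. Kallisto means are not sums of whole reads and were not solved. Shared stretches are distinct 31-base words of human transcripts also present, on either strand, in GENCODE release M21 mouse transcripts. Counting intervals cover counting error in the Xenome mean only. The position of 9 members equals that of GENCODE release 44. Values under other settings are in the closing section. Some genes of the prostate marker list are not reported here.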

Additional observations from a re-analysis of the deposited data

How the results depend on the processing

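Of 64 values recomputed under other settings, 51 stayed within counting error of the main value, or for counts within 1.5 times, and 13 did not. Of 55 values under alternatives added after seeing the data, 15 did not, 10 of them the shares in stretches of 50 bases. With Kallisto in place of Xenome the mean count was 8244 for SOX4, 90.5 for SOX5, 120.3 for SOX6 and 441 for SOX11, and with XenofilteR it was 64.1 for SOX6. The SOX6 ratio fell to 1.88 with XenofilteR in the denominator, under the threshold of 2. Dividing by the median ratio of genes at 50 or more gave 1.01 for SOX4 and 0.993 for SOX12. With all genes above 0 as the comparison, the percentiles were 85.3 for SOX6 and 86.2 for SOX11, and with genes at 50 or more it was 96.8 for SOX11. Under these settings of pipeline, scaling and comparison genes, SOX9 and SOX8 stayed within counting error. Without scaling by length, 8 of 10 genes kept their place in Xenome, and SOX8 and SOX11 exchanged theirs. By the mean alone, 5 members had exactly 1 solution in Xenome within the rounding of the last digit, a tolerance that replaced the first choice of 1e-06 relative after the data were seen. With 1e-06, as with 1e-07 and 1e-05, 3 members had. Ratio thresholds of 1.5 and 3, added after seeing the data, were passed by 4 and 3 of the 10 members. Among the 7 members at a mean count of 10 or more, SOX6 and SOX11 passed 1.5 and SOX11 alone passed 3, beside 13.3% and 5.40% of genes at that level. With stretches of 50 bases, added likewise, SOX9 shared 1.03% and SOX8 0%. SOX11 (1.47%) and SOX6 (1.09%) then lay above SOX9, and SOX4 (6.68%) above SOX2 (5.08%), the reverse of their order at 31 bases. The cause of these shifts was not tested. Leaving out each of the 6 unlabelled libraries in turn, also added after seeing the data, gave Xenome means of 223 to 275 for SOX9, 89.9 to 101 for SOX8, 119.8 to 145 for SOX11, 36.2 to 48.1 for SOX6, 0.461 to 0.875 for SOX18, 0.0376 to 0.0788 for SOX5 and 0 to 0.0823 for SOX2. SOX9 without library 3 (223) or 6 (275), SOX11 without library 5 (119.8) and SOX2 without library 3 (0) left the counting interval of the mean, which is 224 to 269 for SOX9. The mean moved by over 1.5 times for SOX18 without library 2 (0.461), for SOX5 without library 2 (0.0411) or 3 (0.0376), and for SOX2 without library 3, which held both of its reads. SOX4, SOX12 and SOX13, whose reads were not settled, gave no such value. No paired analysis was possible because the libraries solved from the means were not placed in groups and carry no replicate number. The 3 shallow libraries limit the precision: they held 110 of the 5601 SOX9 reads in Xenome.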

Other observations

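The normalised counts of SOX9 fell into 2 separate clusters over the 6 unlabelled libraries in Xenome: 341, 322 and 362 in libraries 1, 2 and 3, and 171, 179.6 and 101 in libraries 4, 5 and 6. The set was selected on a contrast of SOX9 between these same libraries, so its spread over them is a description and supports nothing. The clusters coincide with depth, since libraries 1 to 3 are the deep ones, and depth and any group cannot be told apart here. The same order, with each of libraries 4 to 6 below each of libraries 1 to 3, was found in 20.1% of the 3663 genes with a Xenome mean between 40 and 250 whose reads were settled, and the opposite order in 8.03%. SOX8, SOX11 and SOX6 did not show such clusters. SOX15, the SOX gene with a mean closest to that of SOX8, had 107, 109, 94.4, 91.4, 69.1 and 64.3 in libraries 1 to 6, and thus the same order. That order rests on 39, 10 and 7 reads in libraries 4 to 6, and 94.4 and 91.4 differ by less than counting error. SOX7 had 20.1, 14.5, 17.3, 21.1, 13.8 and 27.6 and did not have the same order, on 2 to 9 reads in each of libraries 4 to 6. Of the 4 cartilage matrix genes with a Xenome mean of 10 or more whose reads were settled, 1 had the order of SOX9. MATN1 (mean 20.8) and MATN3 (11.7) lay below the range of 40 to 250, so the 20.1% is not a share to set beside all 4. COL9A2, a cartilage collagen gene known as a SOX9 target, had 119, 139 and 132 in libraries 1 to 3 and 145, 159 and 45.9 in libraries 4 to 6, so that its values overlapped. COL11A2, another such gene, had 59.6, 51.6 and 51.6 in libraries 1 to 3 and 18.8, 41.4 and 36.7 in libraries 4 to 6, the same order as SOX9, on 4 to 8 reads in each of the shallow libraries. MATN1 had 13.3, 23.3, 14.2, 11.7, 34.5 and 27.6 in libraries 1 to 6, and MATN3 had 11.8, 10.7, 12.8, 21.1, 13.8 and 0, and neither had that order.

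SOX9-AS1 had 7, 8 and 5 reads in libraries 1 to 3 and none in libraries 4 to 6, where a count of 0 allows up to 3 reads. SOX2-OT had 50, 45, 42, 5, 1 and 1 reads in libraries 1 to 6, normalised counts between 6.91 and 11.7. COL11A1 went from 18 reads in Xenome, all in libraries 1 to 3, to 49 in XenofilteR, of which 31 were in libraries 4 to 6.

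Protein-coding genes that hold a 31-base stretch found in 10 or more mouse genes, as SOX5 and SOX11 do, had a Kallisto mean at least 2 times the Xenome mean in 255 of 1874 cases (13.6%), beside 900 of 11350 (7.93%) among genes without one, both at a mean count of 10 or more. SOX11 is 1 of the 255, while SOX5, with a Xenome mean below 10, is not among the 1874. The 2 sets of genes were not matched for transcript length. Genes are not independent replicates, and this is a description of 1 table.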
